A study of Mus musculus with 4 samples.

Results

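The genes described here handle fluorouracil and the thymidylate and uracil nucleotides it acts on: Tyms, Tk1, Dut, Ung, Umps, Uck2, Uck1, Upp1 and Dpyd. They are 9 of 32285 genes in the count matrices, chosen by symbol from their known roles, with earlier results of these data known. All 9 symbols were found on 1 row each. Their counts came from droplet single-cell RNA sequencing of bone marrow cells that are Lineage-negative, Sca-1-positive and cKit-positive (LSK), a sort that keeps hematopoietic stem cells and multipotent progenitors. The mice were C57BL/6, and the study's methods name males for the homeostasis library. Wild-type animals were Sin3b F/F, and knockout animals were Sin3b F/F with Vav1-iCre, which deletes Sin3b throughout the blood system from before birth. A library came from untreated mice at homeostasis, and another from mice that had received 100 mg/kg 5-fluorouracil (5-FU) into the peritoneum 9 days earlier. Each library pooled cells of 2 mice per genotype, and a hashtag antibody marked the genotype, so the data hold 4 pools of cells and not 8 animals. Condition and library coincide, so levels at homeostasis and after 5-FU cannot be told apart from library differences and were not compared.

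5-FU is inactive until cells turn it into nucleotides. Upp1 (uridine phosphorylase) joins the base to a sugar, Uck1 and Uck2 (uridine-cytidine kinases) phosphorylate the nucleoside, and Umps (uridine monophosphate synthetase, the last enzyme of de novo pyrimidine synthesis) can make the nucleotide directly. Tk1, the cytosolic thymidine kinase, phosphorylates deoxynucleosides, including the fluorinated one. The fluorinated deoxynucleotide blocks Tyms, thymidylate synthase, which makes the thymidylate that DNA synthesis needs. Dut (dUTP pyrophosphatase) destroys dUTP before it enters DNA, and Ung (uracil-DNA glycosylase) cuts uracil or fluorouracil out of DNA. Dpyd, dihydropyrimidine dehydrogenase, begins the breakdown of the drug and of uracil.

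Values for the 4 pools are given in a fixed order, the wild type before the knockout and homeostasis before 5-FU. The pools held 10329, 4139, 4884 and 3313 cells once filtered, with median depths of 6990, 6616, 9303 and 10954 unique molecular identifiers (UMIs) per cell. Levels are CPM, a gene's share of all UMIs of the cells summed in a pool on the usual CPM scale, with 95% Poisson intervals that cover counting error only, and they are not length-scaled, so genes are not ranked against each other. Sin3b, the deleted gene, was at 81.8, 23.2, 112 and 15.1 CPM. The 4 marker genes of the sort summed to between 758 and 1069 CPM in the 4 pools, with none at 0, and 9 lineage genes to between 7.09 and 13.9 CPM, with 2 or 3 at 0. Cells with 2 or more UMIs of these lineage genes had been removed, so their low sum is no check of the sort. Mast and basophil genes summed to between 21.7 and 34.1 CPM, mature erythroid genes to 20.9, 28.3, 56.5 and 87.9 CPM and stromal and endothelial genes to 164, 146, 85.9 and 66.6 CPM, and their part in the results below was not tested. The libraries shared 76 cell barcodes. Cells were sorted into states by counting list genes detected at a common depth of 4000 UMIs. A cell with at least 4 of 15 mitotic genes was called G2/M gene-high. Of the others, a cell with at least 5 of 10 DNA replication genes was called replication gene-high, and the rest cycle-low. A cell that passed both cycle lists was therefore G2/M gene-high. Stem marker-positive cells had at least 3 of 10 stem cell genes, and lineage-primed cells at least 3 genes of a myeloid, megakaryocyte-erythroid or lymphoid list. Cells that passed more than 1 of these 4 lists were left out of both. No member is in any of these lists. The stem gate was wide at homeostasis, where 5052 of 9844 wild-type cells passed and 3140 of them held only the minimum of 3 genes. A gate is a range of cells and not a cell type.

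Sequences before the gene start are shown for Tyms, Tk1 and Ung, which with Dut differed most between replication gene-high and cycle-low cells, for Upp1, which ran the other way, and for Umps, which holds a match to a cell cycle element. None is shown for Dut, whose window lies within the annotated gene. They come from RefSeq (GRCm38.p6), are written 5′ to 3′ on the gene's strand in lower case, and were limited to bases that also lie before the GENCODE M21 gene start. They end 1 base before the RefSeq start for Tyms, Umps and the second of 3 Upp1 starts, 79 bases before it for Tk1 and 50 bases before it for Ung. The submitters' processing notes name mm9, which is another build than that of these coordinates. The build behind the count matrices is not stated with them. Capitals mark a match to a cell cycle element searched on both strands.
Tyms, chr5:30073626-30073745, minus strand: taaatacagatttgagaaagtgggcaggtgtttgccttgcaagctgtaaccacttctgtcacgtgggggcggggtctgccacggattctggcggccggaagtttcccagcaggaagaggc
Tk1, chr11:117826093-117826212, minus strand: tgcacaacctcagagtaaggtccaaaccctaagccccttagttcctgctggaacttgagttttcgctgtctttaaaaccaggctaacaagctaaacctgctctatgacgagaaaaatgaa
Ung, chr5:114130266-114130385, plus strand: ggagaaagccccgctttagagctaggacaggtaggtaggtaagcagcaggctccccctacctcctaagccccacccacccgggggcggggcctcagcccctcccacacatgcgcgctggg
Umps, chr16:33967039-33967158, minus strand: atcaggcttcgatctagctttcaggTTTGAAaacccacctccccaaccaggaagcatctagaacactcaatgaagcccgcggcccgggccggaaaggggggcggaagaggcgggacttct
Upp1, chr11:9117983-9118102, plus strand: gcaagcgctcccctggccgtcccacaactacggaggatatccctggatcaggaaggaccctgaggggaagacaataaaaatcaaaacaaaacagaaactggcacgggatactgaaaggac
Over the 250 bases before each RefSeq start, none of the 9 members held an E2F element (TTTCCCGC, TTTCGCGC, TTTGCCGC or TTTGGCGC), which 1.86% of 32851 promoter windows held. None held CCAAT, against 33.8% of windows. The cell cycle homology region (TTTGAA or TTCGAA), present in 17.1% of windows, was found in Umps, 95 bases before the start, and in Uck2, 219 bases before it. These letters are a description, and their absence from this window says nothing of a factor's binding.

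The question of the first comparison was how the members' levels differed with the cell cycle. In replication gene-high cells the transcripts of Tyms, Tk1, Dut and Ung were several-fold higher than in cycle-low cells of the same pool, those of Umps and Uck2 were higher by less, and Upp1 was lower. Of the 9 members, 6 were higher and 1 was lower by edgeR's quasi-likelihood test with the pool as a block and adjusted p under 0.05, where 20.1% of all genes tested were higher and 24.8% lower. Without TMM scaling 34.7% rather than 44.8% of the called genes were higher, and the same number of members was called in each direction. The median log2 difference of the 9 members was 0.95 and that of all genes tested was -0.09. Replication gene-high cells were also deeper, with medians from 9456 to 19932 UMIs against 6421 to 9683 in cycle-low cells. Lineage genes moved in the same test, with 7 of 10 megakaryocyte-erythroid genes higher and 0 lower (median 0.80), 5 of 8 myeloid genes higher and 2 lower (median 1.19), and 1 of 8 lymphoid genes higher and 2 lower. The part of depth and of these genes in the members' differences was not tested.

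Tyms was at 21.4, 20.5, 27.7 and 23.0 CPM in cycle-low cells. In replication gene-high cells it was at 95.1, 117 and, after 5-FU, 134 and 125 CPM. No pool's value overlapped between the states, and the log2 difference was 2.41 ± 0.08 (SE, 4 pools, adjusted p = 3.58e-12). Tk1 was at 6.43 to 9.30 CPM in cycle-low and 56.3 to 73.0 in replication gene-high cells. Its log2 difference was 3.11 ± 0.12 (adjusted p = 1.07e-11). Dut lay between 101 and 129.5 CPM in cycle-low and between 377 and 463 CPM in replication gene-high cells, a log2 difference of 1.88 ± 0.07 (adjusted p = 1.15e-11). Ung, the repair glycosylase, was at 9.05 to 14.8 CPM in cycle-low cells and at 58.1 to 98.1 CPM in replication gene-high cells, with a log2 difference of 2.68 ± 0.10 (adjusted p = 6.34e-12).

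Umps and the uridine-cytidine kinases differed by less than these 4 genes. Umps was at 31.1 to 34.5 CPM in cycle-low and 50.02 to 65.3 CPM in replication gene-high cells (log2 difference 0.95 ± 0.08, adjusted p = 1.56e-07). Uck2 rose by 0.50 ± 0.09 on the log2 scale (adjusted p = 0.000345), from 69.2 to 78.9 and from 59.4 to 79.3 CPM in the homeostasis pools, wild type then knockout, and from 37.0 to 50.9 and from 36.9 to 57.6 CPM after 5-FU. Uck1 was at 0.27 ± 0.11 (adjusted p = 0.0604). It passed under 5 of 14 alternatives, among them leaving out the wild-type homeostasis pool (0.36, adjusted p = 0.00943). Upp1 ran the other way, from 12.3, 20.2, 22.1 and 27.4 CPM in cycle-low cells down to 4.97, 4.60, 6.67 and 5.32 CPM. It was lower in all 4 pools, with a log2 difference of -1.76 ± 0.15 (adjusted p = 1.2e-07). The stem gate's genes moved with it, 8 of 10 lower and 0 higher with a median of -1.26, and their part in the value was not tested.

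**Figure D1:**
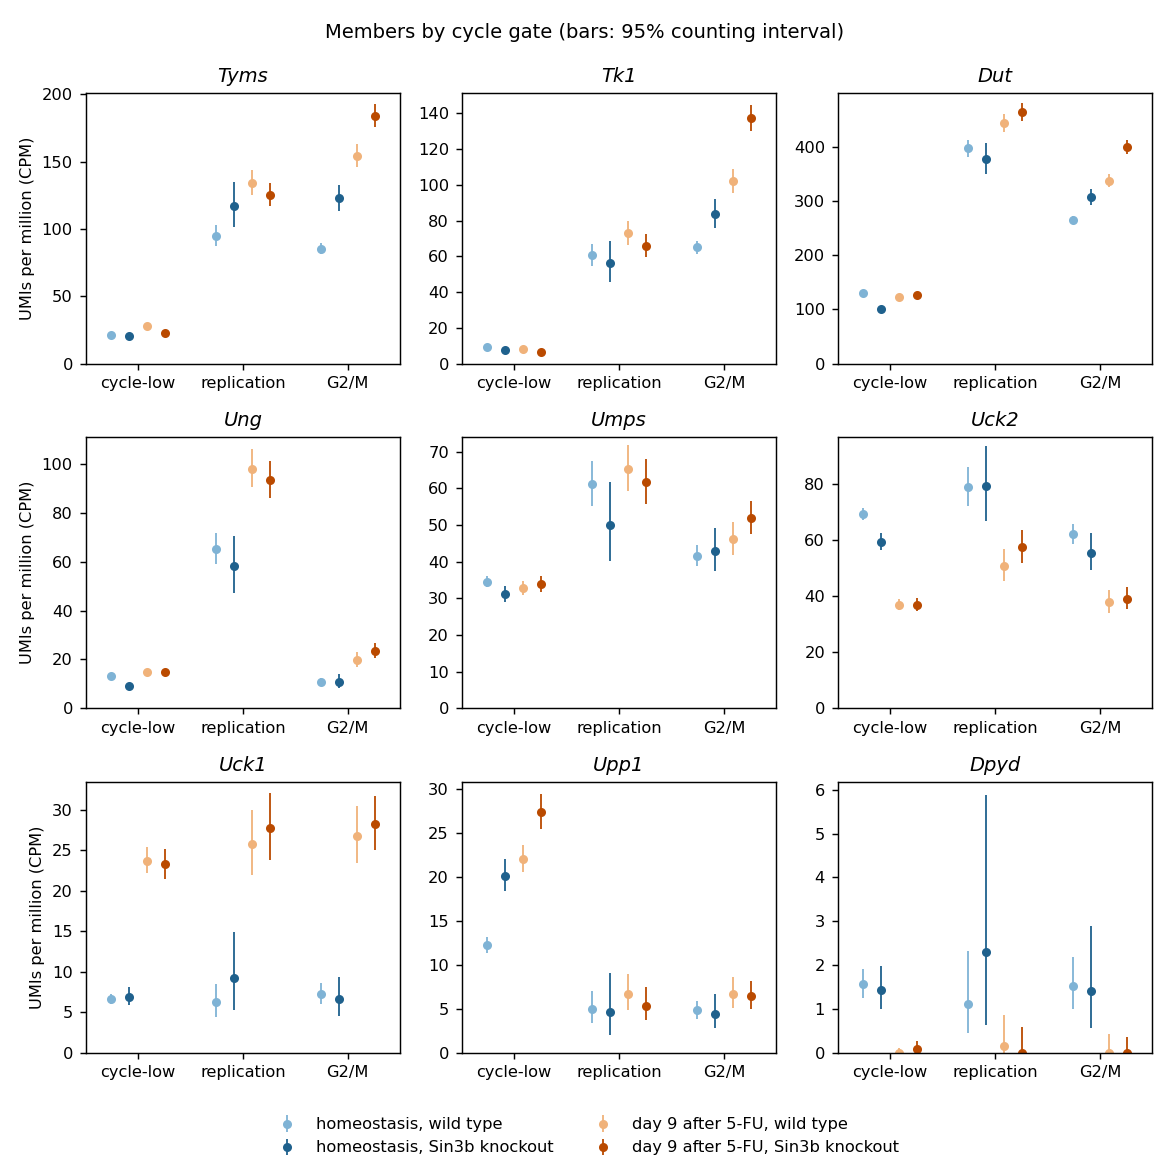
CPM (vertical axes from 0) of each member in cycle-low, replication gene-high and G2/M gene-high cells, with 1 point per pool and 95% counting intervals. Tyms, Tk1 and Dut are high in both cycling states in all 4 pools, Ung is highest in replication gene-high cells, with 10.8 to 23.3 CPM in G2/M gene-high cells against 9.05 to 14.8 CPM in cycle-low cells, and Upp1 is lower in both.

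In G2/M gene-high cells Tyms, Tk1 and Dut were again higher than in cycle-low cells and Upp1 was again lower, while the Ung difference missed the threshold. Of the members, 5 were higher and 1 lower, against 22.0% and 22.8% of all genes tested. Without TMM the share of called genes that were higher was 31.7% rather than 49.0%, the median of all genes moved by -0.13 on the log2 scale, and 4 members were higher. Median depth in these cells was 12078 to 23678 UMIs. All 10 megakaryocyte-erythroid genes were higher in this test (median 1.30), 5 of 8 myeloid genes were higher and 2 lower, 5 of 9 lymphoid genes were higher and 1 lower, and 8 of 10 stem gate genes were lower and 1 higher. Their part in the members' differences was not tested. Tk1 was at 65.1 and 83.4 CPM at homeostasis and 102 and 137 CPM after 5-FU, wild type then knockout, a log2 difference from cycle-low cells of 3.67 ± 0.20 (adjusted p = 2.31e-07). For Tyms the levels were 85.3, 123, 154 and 184 CPM in the same order (2.63 ± 0.13, adjusted p = 1.13e-07), and for Dut 265, 307, 337 and 399.5 CPM (1.56 ± 0.09, adjusted p = 4.69e-07).

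Ung was at 10.8 and 10.8 CPM at homeostasis and at 19.8 and 23.3 CPM after 5-FU in G2/M gene-high cells, 0.39 ± 0.15 above cycle-low cells on the log2 scale (adjusted p = 0.0524). After 5-FU both values lay above those of cycle-low cells, 14.8 and 14.7 CPM, with counting intervals that did not overlap. At homeostasis the wild-type value lay below the 13.0 CPM of its cycle-low cells and the knockout value above the 9.05 CPM of its own, with intervals that overlapped. Cells that passed both cycle lists are among the G2/M gene-high cells, and their part in the Ung difference was not tested. The difference turned with the gate. With 1 list gene more required in every gate it was -0.83 (adjusted p = 0.00117), and with 1 fewer it was 1.65 (adjusted p = 0.00019). Without the wild-type homeostasis pool it was 0.62 (adjusted p = 0.000282). Umps was 0.59 ± 0.08 higher (adjusted p = 0.000156). Uck1 was 0.29 ± 0.10 higher (adjusted p = 0.0314), and that call was lost under 7 of 14 alternatives, including leaving out either 5-FU pool (adjusted p = 0.124 without the wild type and 0.163 without the knockout). Uck2 stood at 0.09 ± 0.07 (adjusted p = 0.316). Upp1 was at 4.81, 4.41, 6.67 and 6.45 CPM, lower by 1.66 ± 0.14 on the log2 scale (adjusted p = 6.64e-06).

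The levels also followed the number of replication genes seen in a cell, among cells below the G2/M gate. That number was read on cells thinned to 4000 UMIs, and the levels are of unthinned counts. Ung was at 1.51 to 4.08 CPM in the 4 pools in cells with 0 of the 10 genes, at 22.2 to 30.3 CPM with 3, and at 53.7 to 110 CPM with 6 or more. Tk1 went over the same range from 2.55 to 4.26 CPM up to 72.4 to 84.8 CPM. Tyms began higher, at 9.89 to 15.7 CPM, and reached 112 to 150 CPM. Dut was at 60.8 to 76.5 CPM in cells with 0 replication genes and at 395 to 484 CPM in cells with 6 or more. Free RNA, measured at homeostasis only, held Dut at 129 CPM, above both homeostasis values with 0 genes. Upp1 stood at 16.6, 24.9, 23.7 and 36.3 CPM with 0 genes and at 3.80, 1.38, 6.06 and 4.44 CPM with 6 or more. The 1.38 CPM rests on few counts, as all replication gene-high cells of the knockout homeostasis pool held 8 Upp1 UMIs. With G2/M gene-high cells left out, the group with 6 or more held 73 cells in the knockout homeostasis pool, the fewest of any group, and 283 at most.

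**Figure D2:**
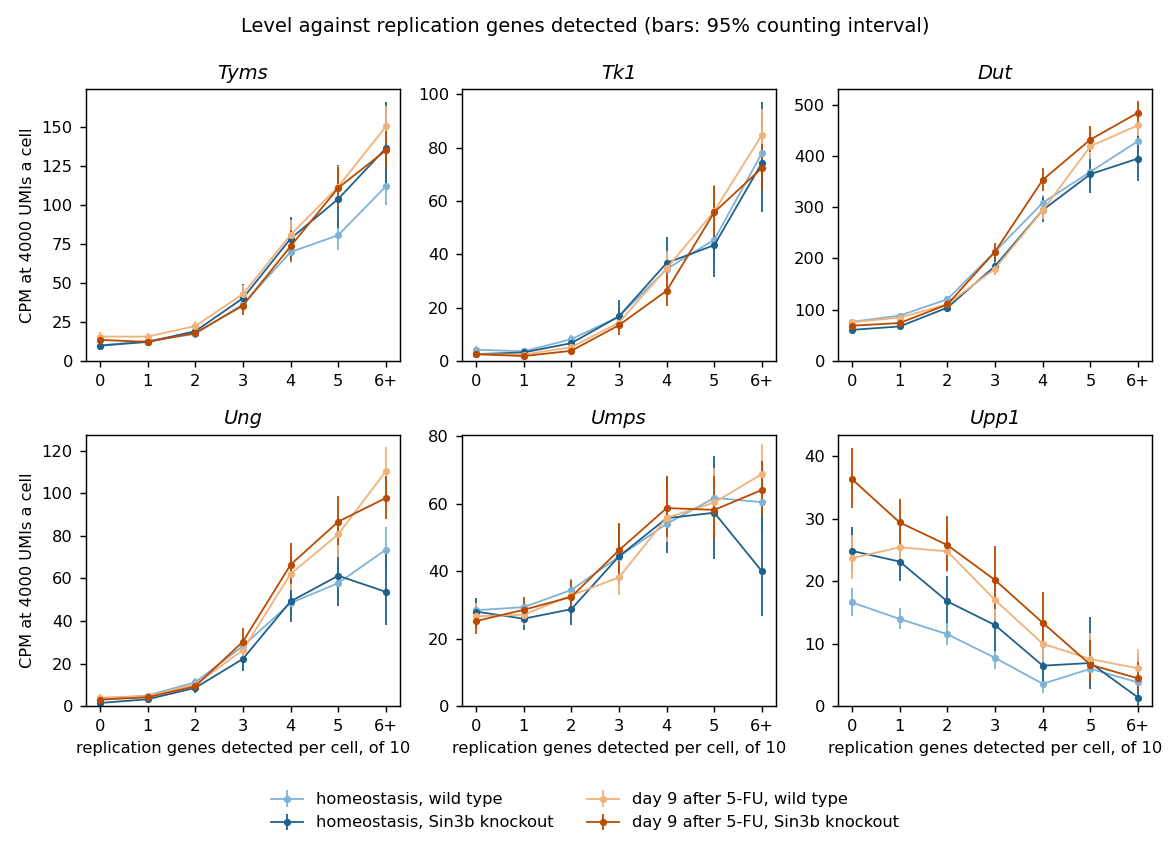
Level (CPM of unthinned counts, vertical axes from 0) of 6 members against the number of replication genes detected in a cell, of 10, for the 4 pools, with 95% counting intervals. G2/M gene-high cells are left out. The 4000 UMIs of the axis label is the depth at which replication genes were counted. Tyms, Tk1, Dut and Ung are low at 0 to 1 genes and highest at 6 or more, except Ung in the knockout homeostasis pool, which is highest at 5. Umps has a shallower slope, and Upp1 declines.

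Over 19 groups of cells (pool, cycle state and stem or primed gate, each with at least 50 cells), the gene whose log2 level was most like that of Tyms among 7115 genes was Clspn, a checkpoint mediator at replication forks (Pearson r = 0.996, centred within pools). Next came Tk1 (0.994), Atad2 (0.993), Cdc45 (0.992), a replication helicase factor, and Brca1 (0.992). Cdc45 is itself among the replication genes that made the groups. The groups share libraries and were made from replication and mitotic genes, so these values are a description. Among the members, Tyms was like Dut (0.950) and Umps (0.865), and less like Ung (0.524) and Uck2 (0.464). Upp1 and Dpyd were below the minimum mean of 20 CPM. With a minimum of 5 CPM, set after the values were seen, the genes most like Upp1 among 10624 were Ccdc60 (0.984), Glul (0.977), Pdgfd (0.975), Aplp2 (0.974) and Rora (0.973), and Dpyd was still below it.

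Of 48 further genes of pyrimidine and folate metabolism and uracil repair, 46 were tested and 29 were higher and 6 lower in replication gene-high cells, with a median log2 difference of 0.57, where 20.1% of all genes tested were higher and 24.8% lower. All but 1 of the 7 de novo synthesis genes, 7 of 9 folate cycle genes and 6 of 9 uracil and base excision repair genes were higher. The salvage enzymes and kinases split, 5 higher and 2 lower of 10. Rrm2, the regulated subunit of ribonucleotide reductase, differed most (2.97 ± 0.13 on the log2 scale, adjusted p = 3.81e-11). Lig1, the DNA ligase of replication and repair, was at 2.50 ± 0.07 (adjusted p = 3.2e-12) and Rrm1, the large reductase subunit, at 1.90 ± 0.07 (adjusted p = 1.17e-11). In G2/M gene-high cells 25 of the 46 were higher and 7 lower, with a median of 0.31, against 22.0% and 22.8% of all genes tested, and Rrm2 (3.41 ± 0.15, adjusted p = 3.07e-08), Rrm1 (2.26 ± 0.07, adjusted p = 2.77e-09), Mthfd2 (2.03 ± 0.23, adjusted p = 6.08e-05) and Lig1 (2.00 ± 0.11, adjusted p = 3.08e-07) differed most.

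The second comparison asked how stem marker-positive cells differed from lineage-primed cells when cells that passed a cycle gate were set aside. In cycle-low cells Upp1 was higher in the stem gate, and Tk1, Ung, Tyms, Dut, Umps and Uck2 were lower. That is 1 member higher and 6 lower, where 15.1% of all genes tested were higher and 14.6% lower. Without TMM 66.1% rather than 50.9% of called genes were higher, with the same count of members. The cycle gate lists were lower too, as were the 6 members other than Upp1. All 10 replication genes were lower in the stem gate, with a median of -1.11 (log2), and their summed level was 344 to 430 CPM against 627 to 936 CPM. Of the 15 mitotic genes 11 were lower, with a median of -0.87. The part of these genes in the members' differences was not tested.

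Upp1 was at 18.6 and 25.8 CPM in stem marker-positive cycle-low cells at homeostasis and 30.5 and 39.8 CPM after 5-FU, wild type then knockout, and at 3.88, 6.17, 10.8 and 11.1 CPM in lineage-primed ones. No stem value lay below the highest primed value, and the log2 difference was 1.79 ± 0.14 (adjusted p = 1.97e-05), called under all 14 alternatives. At 4000 UMIs a cell, 7.43% to 15.8% of stem marker-positive and 1.23% to 5.11% of lineage-primed cycle-low cells held an Upp1 UMI. Within the primed cells, the megakaryocyte-erythroid gate was at 10.8 to 14.7 CPM, the myeloid gate at 4.14 to 13.6 CPM and the lymphoid gate at 2.06 to 5.75 CPM. Lymphoid values rest on few counts, 14 UMIs at most in a pool. The megakaryocyte-erythroid values at homeostasis rest on 8 and 6 UMIs, wild type then knockout. Their intervals, 5.80 to 26.5 and 5.38 to 31.9 CPM, held the stem values of the same pools. The knockout myeloid value at homeostasis rests on 7 UMIs.

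Free RNA could be measured at homeostasis only, in 56160 barcodes with 10 to 100 UMIs. Upp1 was at 24.6 CPM there, with an interval of 17.4 to 33.7, above its 10.4 CPM over wild-type cells. Its level in stem marker-positive cycle-low wild-type cells, 18.6 CPM, lay inside that interval, and its level in lineage-primed ones, 3.88 CPM, lay below it. The part of free RNA in the cells' Upp1 counts was not tested. Dpyd was at 9.06 CPM in free RNA (4.95 to 15.2) and at 1.54 CPM in wild-type cells, so its few UMIs in cells were not above that background. Tyms, Tk1 and Ung were at 41.4, 23.3 and 15.5 CPM in free RNA and at 40.6, 25.2 and 16.2 CPM over all wild-type cells. Uck2 and Uck1 were at 76.4 and 9.71 CPM in free RNA and at 67.8 and 6.73 CPM in those cells. Dut, at 129 and 178 CPM, and Umps, at 22.0 and 38.0 CPM, were lower in free RNA, and the Dut value was close to the 129.5 CPM of wild-type cycle-low cells.

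Tk1 was at 2.90 to 6.37 CPM in stem marker-positive and 12.4 to 18.4 CPM in lineage-primed cycle-low cells (log2 difference -1.73 ± 0.22, adjusted p = 0.000377). Ung fell by 1.75 ± 0.25 on that scale (adjusted p = 0.000634), and its 5.51 to 9.57 CPM in the stem gate lay below the 17.6 to 37.5 CPM of the primed gate. For Tyms the ranges were 13.3 to 16.7 and 25.9 to 42.6 CPM (-1.19 ± 0.16, adjusted p = 0.0005), and for Dut 75.4 to 106 and 158 to 239 CPM (-1.15 ± 0.14, adjusted p = 0.000249). Umps fell by 0.63 ± 0.11 (adjusted p = 0.00215). Uck2 fell by 0.35 ± 0.08 (adjusted p = 0.00746), a call that was lost in cells thinned to 4000 UMIs (adjusted p = 0.0989). Uck1 (-0.23 ± 0.14, adjusted p = 0.247) and Dpyd (0.47 ± 0.53, adjusted p = 0.554) did not pass.

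**Figure D3:**
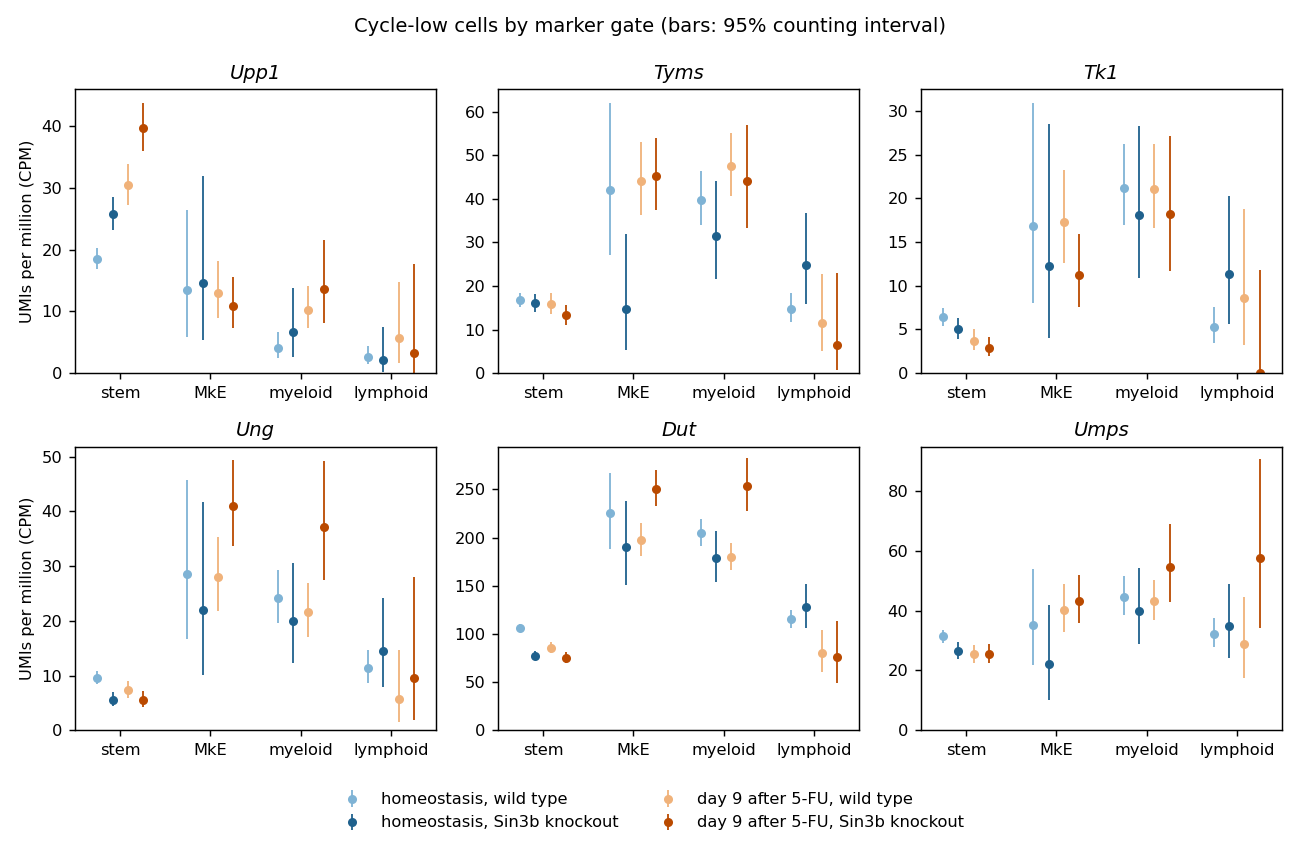
CPM (vertical axes from 0) of 6 members in cycle-low cells of the stem, megakaryocyte-erythroid (MkE), myeloid and lymphoid marker gates, for the 4 pools, with 95% counting intervals. Upp1 is highest in the stem gate in every pool, with intervals that overlap those of the MkE gate at homeostasis. Ung, Dut and Tk1 are lower in the stem gate than in the myeloid gate in every pool.

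Some stem marker-positive cells did pass a cycle gate. Tyms was at 101, 104, 137 and 58.4 CPM in replication gene-high stem marker-positive cells, in the order of pools above, the last from 28 UMIs. In lineage-primed replication gene-high cells it was at 113, 127, 123 and 137 CPM. Upp1 in the stem gate was at 5.98 and 6.22 CPM at homeostasis and 13.7 and 12.5 CPM after 5-FU among replication gene-high cells, each from at most 10 UMIs. Ung in G2/M gene-high cells was at 8.99, 5.38, 3.22 and 38.2 CPM in the stem gate, from 46, 8, 2 and 40 UMIs. In the primed gate it was at 12.8, 8.62, 25.9 and 17.0 CPM. The stem value was lower in 3 pools, with overlapping intervals in both homeostasis pools, and higher in the knockout 5-FU pool. No test was made of these smaller groups. Cycling cells were 14.7% and 7.54% of the stem gate at homeostasis, wild type then knockout, and 5.37% and 6.67% after 5-FU. In the primed gate they were 28.8%, 30.1%, 37.0% and 49.7%.

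Among the wider pathway genes, 5 were higher and 21 lower of 46 in stem marker-positive cycle-low cells, with a median log2 difference of -0.30 against 0.04 over all genes, of which 15.1% were higher and 14.6% lower. The lower ones included Rrm2 (-1.83 ± 0.25, adjusted p = 0.000553) and Lig1 (-1.40 ± 0.20, adjusted p = 0.000646). Upp2, the second uridine phosphorylase, was higher, as its paralog Upp1 was (1.32 ± 0.24, adjusted p = 0.0027). It was at 14.1 and 13.6 CPM in the stem gate and 5.87 and 2.88 CPM in the primed gate at homeostasis, and at 3.25, 2.71, 2.02 and 0.695 CPM after 5-FU.

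The genotype comparison asked what the loss of Sin3b changed. Within a library there was 1 pool per genotype, so log2 ratios of knockout over wild type are given with exact counting intervals, and no test within a library was possible. Over all kept cells, Upp1 at homeostasis was the member whose ratio was largest, at 17.0 against 10.4 CPM (0.71, interval 0.55 to 0.86). It was the only member there with a ratio of at least 0.5 whose interval left out 0, a bound that 11.2% of genes with at least 50 UMIs passed. After 5-FU only Tk1 passed it, at 45.2 against 31.5 CPM (0.52, interval 0.43 to 0.62), where 10.0% of genes did. Upp1 after 5-FU was at 0.14. The stem gate, where Upp1 was highest, held 40.9%, 54.6%, 28.5% and 36.2% of the cells in the 4 pools, and the part of that share in the ratio was not tested. Within the stem gate the bound was passed at homeostasis by 2 members, Upp1 (0.56) and Ung (-0.77), and by 10.5% of genes, and after 5-FU by 1 member, Tk1 (0.65), and by 7.56% of genes. In lineage-primed cells 0 members passed it, against 9.0% and 12.5% of genes in the libraries, and in cycling cells 0, against 8.26% and 7.87%.

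Several members had ratios of opposite sign in the libraries. Dut was at 178 and 147 CPM at homeostasis (-0.28) and at 197 and 238 CPM after 5-FU (0.28). Ung (-0.46 and 0.13), Tk1 (-0.21 and 0.52) and Umps (-0.17 and 0.12) showed the same signs, with intervals that left out 0 at both times. The share of cycling cells had the same order. It was 21.7%, 14.2%, 19.7% and 23.5% in the 4 pools. The part of that share in the ratios was not tested, and sums over cells do not separate more cycling cells from more RNA in each.

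Within a cycle state some ratios had another sign than over all kept cells, and others kept theirs. In G2/M gene-high cells Tyms was higher in the knockout pool in both libraries, at 0.53 (interval 0.39 to 0.66) and 0.25 (0.15 to 0.36), as were Tk1 (0.36 and 0.42) and Dut (0.21 and 0.24). In replication gene-high cells the Tyms ratio was 0.31 (0.07 to 0.54) at homeostasis and -0.10 after 5-FU with an interval of -0.24 to 0.04, and the Tk1 and Dut intervals held 0 in both libraries. In cycle-low cells Tk1 was lower in the knockout pools, at -0.30 and -0.33, and Ung was lower at homeostasis (-0.52, interval -0.75 to -0.31) and at -0.01 after 5-FU. After 5-FU, Ung in lineage-primed cycle-low cells was at 22.3 CPM in the wild type (18.9 to 26.1) and 37.5 CPM in the knockout (32.0 to 43.8). In stem marker-positive cycle-low cells it was at 7.32 and 5.51 CPM, with intervals that overlapped. Upp1 in cycle-low cells was higher in the knockout pools, at 0.72 (0.55 to 0.89) and 0.31 (0.17 to 0.46). In cycle-low stem marker-positive cells it was at 0.47 (0.27 to 0.68) and 0.38 (0.17 to 0.60).

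**Figure D4:**
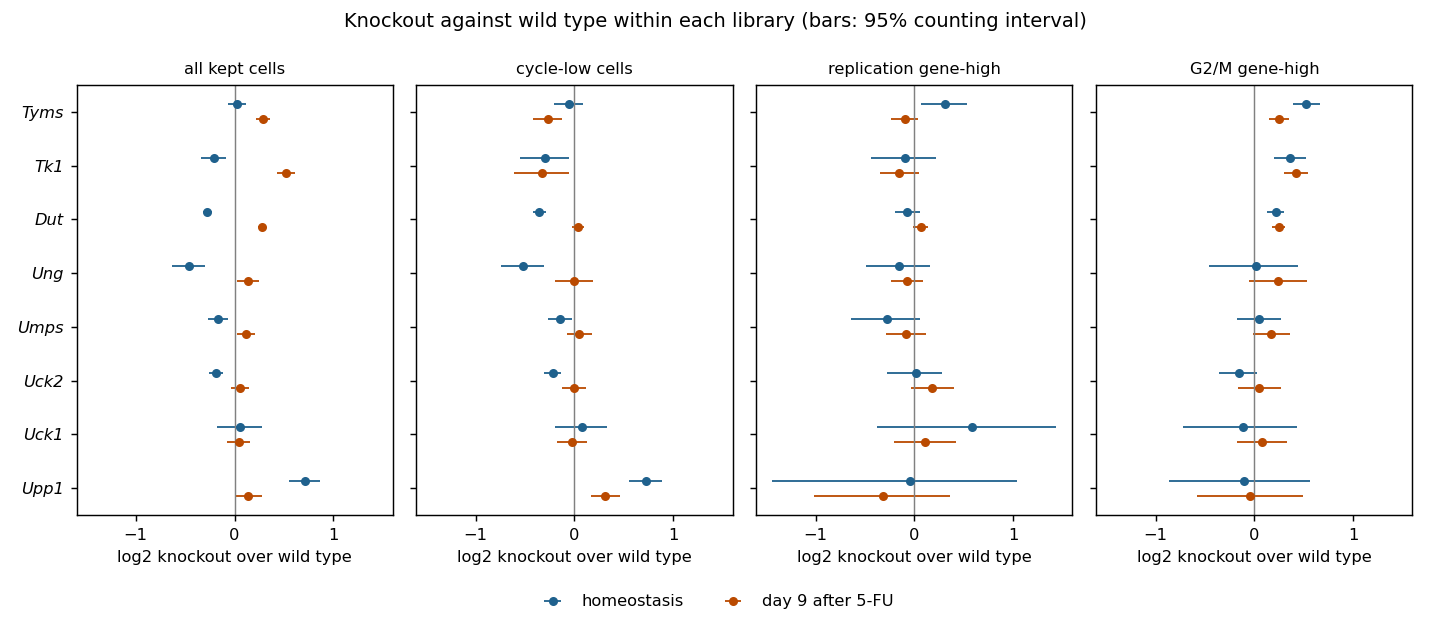
Log2 ratio of knockout over wild type (horizontal axes) of 8 members within each library, in all kept cells and in the 3 cycle states, with 95% counting intervals. Dut, Tk1, Ung and Umps have opposite signs in the libraries over all cells. In G2/M gene-high cells Tyms, Tk1 and Dut are above 0 in both libraries.

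Over the 4 pools, with the library as a block, genotypes could be tested with 1 residual degree of freedom per gene and the spread shared over genes by edgeR. In all kept cells 0 members passed an adjusted p of 0.05 and 1, Upp1, had an unadjusted p under 0.05 (log2 difference 0.43 ± 0.15, adjusted p = 0.32, higher in the knockout in both libraries), where 0.522% of all genes were called. In this test 2 of 10 stem gate genes (median 0.44) and 3 of 10 megakaryocyte-erythroid genes (median 0.64) were higher and 0 lower, and 1 of 8 lymphoid and 1 of 8 myeloid genes were lower and 0 higher, and their part in the Upp1 value was not tested. DESeq2 called 0, also at an unadjusted p under 0.05, of the 8 members to which it gave an adjusted p. In stem marker-positive cells 0 members were called and 1 had an unadjusted p under 0.05, against 2.87% of all genes called, and Upp1 was at 0.45 ± 0.12 (adjusted p = 0.0702). It passed under 3 of 10 alternatives, and its adjusted p over them ran from 0.00237 to 0.9999, the latter with DESeq2, which called 0 members here and 0 at an unadjusted p. In this test 4 of 10 stem gate genes and 3 of 9 megakaryocyte-erythroid genes were higher and 0 lower, 2 of 6 lymphoid and 2 of 8 myeloid genes were lower and 0 higher, and their part in the Upp1 value was not tested. Dut in stem marker-positive cells was at -0.19 ± 0.12 (adjusted p = 0.49) and passed under 2 of them. Ung was at 12.1 and 7.08 CPM in this gate at homeostasis and at 10.1 and 11.3 CPM after 5-FU, and did not pass (-0.33 ± 0.22, adjusted p = 0.548).

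In lineage-primed cells 0 members were called, against 0.137% of all genes. Tyms (0.35 ± 0.08, adjusted p = 0.175), Tk1 (0.38 ± 0.10, adjusted p = 0.195) and Dut (0.28 ± 0.09, adjusted p = 0.246) had an unadjusted p under 0.05 and were higher in the knockout pool in both libraries. Of all 13914 genes tested in these cells, 2035 had an unadjusted p under 0.05, as did 2280 of 17252 in all kept cells and 2174 of 14773 in stem marker-positive cells. DESeq2 called 0 of 5, and 2 had an unadjusted p under 0.05. The makeup of the primed gate differed between these pools. Megakaryocyte-erythroid cells were 6.63%, 19.4%, 39.6% and 66.7% of it. Cycling cells were 28.8%, 30.1%, 37.0% and 49.7% of it. The part of either share in these values was not tested.

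In cycling cells, Tyms and Tk1 were higher in the knockout, and 2.15% of all genes were. Tyms was at 87.8 and 121 CPM at homeostasis and at 146 and 161 CPM after 5-FU, a log2 difference of 0.33 ± 0.08 (adjusted p = 0.0445). Tk1 was at 63.9 and 76.4 CPM and at 89.8 and 109 CPM (0.30 ± 0.08, adjusted p = 0.0462). Both calls lay near the threshold. Tyms passed under 4 and Tk1 under 3 of 10 alternatives, with adjusted p from 0.00525 to 0.601 and from 0.0334 to 0.358, and without TMM neither passed. Without TMM the log2 differences were 0.30 for Tyms and 0.27 for Tk1, and with a hashtag share of 80% they were 0.17 and 0.26. That share left 155 knockout cycling cells at homeostasis, against 554 as reported. Dut was at 0.17 ± 0.07 (adjusted p = 0.216). Lineage genes moved in the same test, 5 of 10 megakaryocyte-erythroid genes higher and 0 lower (median 0.74), and 2 of 8 lymphoid and 2 of 8 myeloid genes lower and 0 higher, and their part in the members' values was not tested. Of the wider list, Rrm2 was called (0.45 ± 0.09, adjusted p = 0.0133), 1 of 45 tested. Without TMM 45.1% rather than 56.9% of the genes called in cycling cells were higher.

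Dpyd was near the limit of detection. It had 130, 48, 1 and 2 UMIs over all kept cells of the pools, so it passed no test and its ratios could not be resolved at this depth. Its locus holds 861912 intronic and 8884 exonic bases on chromosome 3 (118562129 to 119432924, GRCm38, plus strand). Uck1, at 6.73 and 6.99 CPM at homeostasis and 24.3 and 25.0 CPM after 5-FU, showed no ratio between genotypes whose interval left out 0 over all kept cells. Uck2 was at 67.8 and 59.6 CPM at homeostasis (-0.19, interval -0.26 to -0.11) and at 38.7 and 40.2 CPM after 5-FU (0.05, interval -0.04 to 0.15).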

How the data were processed

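The deposited values are raw UMI counts for each gene and droplet barcode. The authors produced them with Cell Ranger, whose version per the file headers was 4 at homeostasis and 6.0.1 after 5-FU. Hashtag counts are rows of the same matrices. The homeostasis matrix carries no gene names of its own, so those listed with the 5-FU matrix were used (log count correlation 0.926 in row order, 0.395 or less when shifted). Total counts were 214615675 and 141497146 UMIs.

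Homeostasis cells were barcodes with at least 2921 UMIs (10% of the 99th percentile of the 10000 largest). HTODemux (Seurat 5.3.0, quantile 0.99) kept cells with 1 tag, B0096 for wild type and B0157 for knockout per the study's methods, and dropped those with both or none. Of 23931 cells at homeostasis 6283 had no tag and 1441 both, and of 12753 after 5-FU 3290 had no tag and 434 both. No caller was run for doublets within a genotype. With a hashtag share of 80% as the alternative, the homeostasis pools held 6241 wild-type and 882 knockout cells, against 10329 and 4139 as reported. After 5-FU they held 4980 and 4064, against 4884 and 3313. At homeostasis that alternative thus rests on far fewer knockout cells. The genotype assignment of the knockout cells lost there was not tested. The extreme 2% at either end of UMIs, genes and mitochondrial share was removed, as were cells with 2 or more lineage UMIs. Gates used counts thinned to 4000 UMIs, and shallower cells (4.70% to 10.5% of a pool) had no gate. Tests summed the unthinned counts of a gate per pool.

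Tests used edgeR 4.0.16 (TMM, filterByExpr, quasi-likelihood, Benjamini-Hochberg over all genes tested), with DESeq2 1.42.0 as an alternative. Pools hold 2 mice, and cells are not replicates. In the tests of state and gate, p-values measure how far the difference within a pool varied between pools. In the genotype tests they measure how far the genotype difference varied between the libraries. In both kinds of test edgeR shared the spread over genes, so a small p-value does not rest on the few pools alone. Ratios added 0.5 UMIs and used exact binomial intervals. Named further genes were the largest 4 differences per test that passed in the wider list, of which Tymp was not in the feature list. A gene that this rule names is not reported here. The edgeR step was tested on simulated data. The members, lists and gates were chosen with earlier results of these data known. Alternatives were other hashtag, cell, gate and count filters, scaling, DESeq2, and leaving out a pool.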

Additional observations from a re-analysis of the deposited data

Results flagged for a closer look

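The following ratios of knockout over wild type had opposite signs in the libraries with counting intervals that left out 0 in both, and the difference between the libraries was not tested. Over all kept cells they were -0.28 at homeostasis and 0.28 after 5-FU for Dut, -0.46 and 0.13 for Ung, -0.21 and 0.52 for Tk1, and -0.17 and 0.12 for Umps, on the log2 scale. In stem marker-positive cells they were -0.17 and 0.29 for Tyms and -0.41 and 0.65 for Tk1. Each library holds 1 pool of 2 mice per genotype, so mice, library and condition cannot be told apart.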

How the results depend on the processing

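No paired analysis of homeostasis and 5-FU samples was possible because the labels give no replicate numbers shared between groups. States and gates were compared within pools, with the pool as a block, and genotypes with the library as a block. Leaving out a pool was not run for the genotype tests, which then have no residual degrees of freedom. In the tests of cycle state and gate, the calls of Tyms, Tk1, Dut, Umps and Upp1 held under all 14 alternatives, as did those of Ung in replication gene-high and stem marker-positive cells. Without a pool, 7 to 8 members passed in replication gene-high cells, 5 to 7 in G2/M gene-high cells and 7 in the stem gate. Ung in G2/M gene-high cells turned from 0.39 to -0.83 (log2) with 1 marker more per gate. Of 47 changes of sign, this was the only 1 in a value that passed in either fit. The cause was not tested. The genotype calls were less stable. In stem marker-positive cells the count of members went from 0 to 1 without a low-count filter, to 2 in thinned counts and to 2 with 1 marker more. In cycling cells it went from 2 to 0 without TMM, with DESeq2, with a hashtag share of 80%, without the quality filter and with 1 marker fewer or more, and to 1 without a low-count filter. Ratios of at least 0.5 within a library numbered 1 over all cells at homeostasis, 3 with the hashtag share of 80%, 2 when thinned and 0 at a bound of 1. After 5-FU, 1 became 0 with the hashtag share and at a bound of 1. In stem marker-positive cells at homeostasis, 2 became 1 with the hashtag share, 5 when thinned and 0 at a bound of 1, and after 5-FU 1 became 0 at that bound. Thinned counts gave 1 in lineage-primed cells at homeostasis, 3 after 5-FU and 1 in cycling cells at homeostasis, where there had been 0. The share of all genes past these bounds was computed for the reported setting only, so nothing is read from the members' counts under the others. Over all genes, calls between genotypes ranged over the alternatives from 98 to 564 in all cells (90 as reported), 90 to 1102 in stem marker-positive (424), 26 to 758 in lineage-primed (19) and 101 to 855 in cycling cells (541). Those between states ranged from 5087 to 7540 (6917) and from 5111 to 8009 (7213), and those between gates from 2711 to 4973 (4387).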
